A study of Mus musculus with 69 samples.

Results

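The epithelial sodium channel (ENaC) and the aldosterone pathway that governs it were followed through 7 of the 24411 genes in the count matrix. They were taken by their symbols and not by any measured value: the channel subunits Scnn1a, Scnn1b and Scnn1g, the mineralocorticoid receptor Nr3c2, the steroid-inactivating enzyme Hsd11b2, the kinase Sgk1 and the ubiquitin ligase Nedd4l. All 7 were among the 21175 genes tested, those whose counts summed to 2 or more over the 69 libraries.

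The mice were heterozygous for Uprt, a uracil phosphoribosyltransferase of Toxoplasma gondii set into the Rosa26 locus behind a floxed stop (genotypes Hoxb7Cre;UPRTf/+ and Atp6b1v1Cre;UPRTf/+), and the controls carried the same alleles as the injured mice. Cells with Cre express the enzyme and build 4-thiouracil (4-TU; 430 mg/kg, 4 hours before the kidneys were taken) into new RNA, which was biotinylated and captured as the pulldown. Kidneys were from control mice, from mice given 4-TU 24 hours after both renal pedicles were clamped for 10 minutes (ischemia, labelled iAKI) and from mice after 72 hours without free access to food and water (volume depletion, labelled vAKI). The 48 pulldown libraries held, for Hoxb7Cre, 10 controls, 7 after ischemia and 7 after volume depletion, and for Atp6b1v1Cre 11, 6 and 7, and another 21 libraries were total kidney RNA of controls, labelled as untagged. The mice were 5.5 months old, except for 3 male Atp6b1v1Cre and 2 female Hoxb7Cre controls of 3 months, and their total RNA. In the main injury comparisons the males of 5.5 months numbered 4 controls, 4 after ischemia and 3 after volume depletion for Hoxb7Cre, and 4, 3 and 4 for Atp6b1v1Cre. The females of the same age numbered 4, 3 and 4 for Hoxb7Cre, and 4, 3 and 3 for Atp6b1v1Cre.

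The drivers limit what each pool can show. Hoxb7Cre acts throughout the collecting duct, whereas Atp6b1v1Cre (written Atp6v1b1Cre in the study's text) acts in intercalated cells and in some cells that share features of both duct cell types, so that the domains overlap. In the control pools against total kidney RNA, the 4 principal cell markers (Aqp2, Aqp3, Aqp4 and Avpr2) were all higher in the Hoxb7 pool, with a median log2 ratio of 1.38, and none was higher in the Atp6b1v1 pool. Of the 5 intercalated cell markers, 4 were higher in the Atp6b1v1 pool and 3 in the Hoxb7 pool. Markers of the proximal tubule, which neither driver targets, were depleted but present, with a summed level of 1286 to 3734 CPM in the Hoxb7 control pools. Library totals ran from 12618062 to 30305464 counts. Of the 43 pulldown libraries of 5.5 months, female Hoxb7 volume depletion replicate 5 was the least like the libraries of its own group, with a median correlation of 0.880 against 0.989 at the other end. A pool also cannot tell fewer cells of a type from less RNA per cell.

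ENaC is the channel through which principal cells, and cells of the connecting tubule, take sodium back from the urine. It is built of an alpha, a beta and a gamma subunit, encoded by Scnn1a, Scnn1b and Scnn1g. Aldosterone binds the mineralocorticoid receptor, the product of Nr3c2, which then moves to DNA and switches on target genes. Glucocorticoids bind the same receptor, and the enzyme encoded by Hsd11b2 inactivates them so that aldosterone can act. Sgk1 is an early target of corticosteroids, and its kinase phosphorylates the ubiquitin ligase encoded by Nedd4l, which otherwise tags ENaC for removal from the apical membrane.

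Promoter sequences are shown for members that moved in opposite directions in the injury comparisons below: Sgk1 and the receptor gene Nr3c2, which were higher after volume depletion in males, and the subunit genes Scnn1b and Scnn1g, which were lower. RefSeq windows (GRCm38.p6, the build of the counts) were used for 4 of the 7 members. Each line gives 250 bases before a start site, 5′ to 3′ on the plus strand. Capitals mark a full corticosteroid response element, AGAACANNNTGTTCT, which reads the same on both strands.
Sgk1, chr10:21993640-21993889: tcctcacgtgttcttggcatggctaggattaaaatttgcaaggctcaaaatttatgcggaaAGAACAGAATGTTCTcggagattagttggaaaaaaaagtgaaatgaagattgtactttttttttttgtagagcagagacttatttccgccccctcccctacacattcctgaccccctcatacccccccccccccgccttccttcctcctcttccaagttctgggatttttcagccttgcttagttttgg
Nr3c2, chr8:76902080-76902329: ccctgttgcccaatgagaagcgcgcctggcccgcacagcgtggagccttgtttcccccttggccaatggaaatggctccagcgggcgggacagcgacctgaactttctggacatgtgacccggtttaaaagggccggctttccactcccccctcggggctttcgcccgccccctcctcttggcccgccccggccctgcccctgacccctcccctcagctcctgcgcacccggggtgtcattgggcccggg
Scnn1g, chr7:121734229-121734478: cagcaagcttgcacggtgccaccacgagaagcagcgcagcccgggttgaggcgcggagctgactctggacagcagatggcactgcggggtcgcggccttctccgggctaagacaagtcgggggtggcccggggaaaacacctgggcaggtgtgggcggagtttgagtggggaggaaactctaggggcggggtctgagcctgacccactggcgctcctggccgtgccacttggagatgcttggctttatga
Scnn1b, chr7:121864788-121865037: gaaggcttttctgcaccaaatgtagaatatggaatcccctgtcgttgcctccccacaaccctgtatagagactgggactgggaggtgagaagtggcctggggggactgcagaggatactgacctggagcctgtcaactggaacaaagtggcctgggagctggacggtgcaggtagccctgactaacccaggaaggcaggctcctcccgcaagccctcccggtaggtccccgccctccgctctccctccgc
Of the 6 start sites that RefSeq gives for Sgk1, the window shown is the one that holds the element, which lies 189 bases before that start and 965 bases before the next. It was found in 3 of 32851 promoter windows of 300 bases, or 0.00913%. Its short arm TGTTCT, searched on both strands and contained in the full element, was in 6233 windows, or 19%. Neither the element nor the arm was in the windows of Nr3c2, Scnn1g and Scnn1b, which says only that these letters are absent from these bases.

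In GENCODE M21 on mm10 the genes, all on the plus strand, span chr6:125320659-125344943 (Scnn1a), chr7:121865038-121918514 (Scnn1b), chr7:121734479-121768475 (Scnn1g), chr8:76899442-77245012 (Nr3c2), chr10:21882184-21999903 (Sgk1), chr8:105518755-105523988 (Hsd11b2) and chr18:64887705-65217828 (Nedd4l). Scnn1g and Scnn1b are neighbours on chromosome 7. Nr3c2 shares exon bases with Gm10649 on the opposite strand, and Nedd4l with A330084C13Rik. The counter's default is to count by strand, but whether the libraries mark strand is not given in the sources used here, so the counts of both members may be uncertain to that extent.

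In control mice the pulldowns held more gamma subunit, receptor and ligase RNA than total kidney RNA did. Pulldowns hold RNA made within 4 hours and total RNA what is present, so they differ in RNA age as well as in cells. The paper calls it conceivable that labelled transcripts reflect higher turnover rather than more RNA that can be translated. The part of each in these differences was not tested. Hsd11b2 was lower in the Atp6b1v1 pulldowns and, over both sexes, in the Hoxb7 pulldowns, where males alone were at a log2 ratio of 0.00. Levels are in CPM, the usual unit of a gene's counts relative to the size of its library, here after TMM scaling. Scnn1g was at 77.6 ± 18.9 CPM (SD, n = 21) in total RNA, at 216 ± 54.7 CPM (n = 10) in Hoxb7 pulldowns and at 244 ± 49.1 CPM (n = 11) in Atp6b1v1 pulldowns. Nr3c2 was at 14.7 ± 3.65, 48.8 ± 12.2 and 42.6 ± 7.96 CPM in the same order. Nedd4l was at 224 ± 31.6, 512 ± 133 and 497 ± 55.7 CPM. For Nr3c2 and Nedd4l every control pulldown lay above every total RNA library, and 21.5% of genes were apart in this way, in either direction. For Scnn1g 1 Hoxb7 pulldown, of female replicate 6 at 104.3 CPM, lay within the range of total RNA, 40.8 to 127 CPM.

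Hsd11b2 was at 145 ± 34.1 CPM in total RNA, at 92.6 ± 45.9 CPM in Hoxb7 pulldowns and at 60.3 ± 17.6 CPM in Atp6b1v1 pulldowns. Scnn1a (252 ± 39, 284 ± 60.5 and 336 ± 59.9 CPM) and Scnn1b (62.9 ± 10.6, 80.6 ± 17.5 and 74.7 ± 21.0 CPM) differed less between the kinds of library. Sgk1 varied most among controls, at 555 ± 275, 1069.7 ± 675 and 606 ± 379 CPM.

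The log2 ratios of pulldown to total RNA were tested in the 42 control libraries with sex as a covariate, with edgeR (quasi-likelihood). As in all comparisons below, p-values were adjusted by Benjamini and Hochberg's method over the 21175 genes. A gene is said to have changed where its adjusted p was under 0.05, and is called a DEG where its log2 fold change was also at least 1 in size. All 7 members differed between the Hoxb7 pool and total RNA, as did 66.6% of genes. The ratios were 1.52 for Scnn1g (standard error 0.12, adjusted p = 2.93e-15), 1.75 for Nr3c2, 1.19 for Nedd4l, 0.84 for Sgk1, 0.40 for Scnn1b and 0.21 for Scnn1a (adjusted p = 0.0495), against a median of 0.11 over all genes. Hsd11b2 was lower, at -0.60 (adjusted p = 4.30e-03), but at 0.00 in males alone (adjusted p = 1) and -1.16 in females alone (adjusted p = 1.59e-04), and Scnn1a was at -0.07 in females alone (adjusted p = 0.682). In the Atp6b1v1 pool 6 of the 7 differed, where 63.8% of genes did, with Scnn1g at 1.72, Nr3c2 at 1.63, Nedd4l at 1.24, Scnn1a at 0.48, Scnn1b at 0.32 and Hsd11b2 at -1.21 (adjusted p = 2.20e-07). Sgk1 was at 0.33 there (adjusted p = 0.191).

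**Figure D1:**
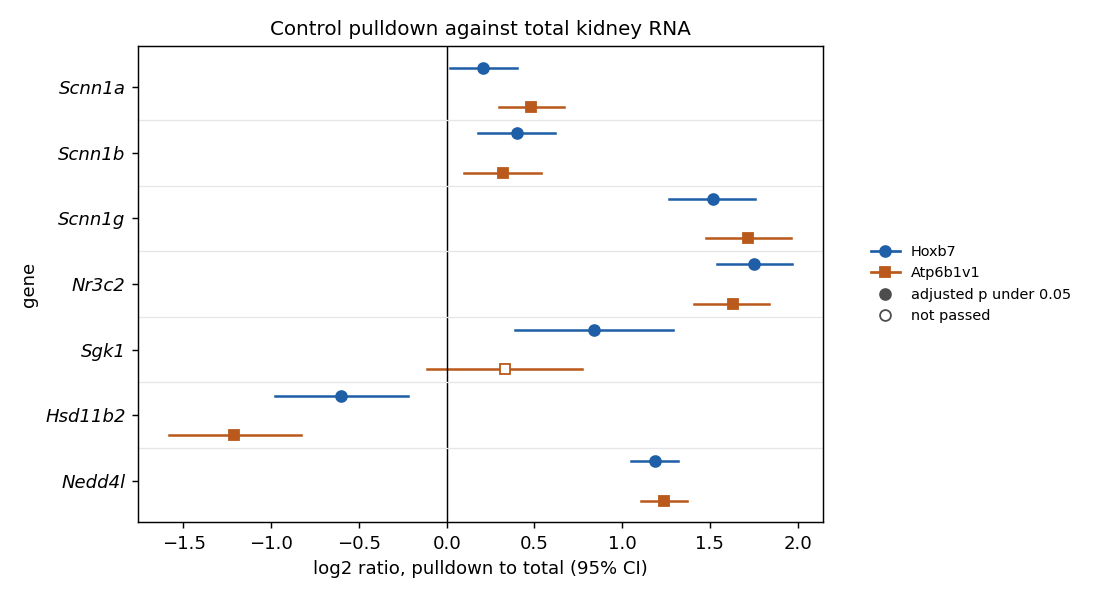
Log2 ratio of control pulldown to total kidney RNA (x axis) for the 7 genes (y axis), Hoxb7 in blue circles and Atp6b1v1 in brown squares, with 95% confidence intervals and filled symbols for an adjusted p under 0.05. Scnn1g, Nr3c2 and Nedd4l lie between 1.19 and 1.75 in both pools, and Hsd11b2 lies below 0 in both.

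The direct comparison of the control pools found no member that differed between the drivers, where 9.93% of genes did. The largest difference was that of Hsd11b2, lower by 0.61 on the log2 scale in the Atp6b1v1 pool (95% interval -1.02 to -0.19, adjusted p = 0.0542), and DESeq2 gave -0.64 with an adjusted p of 0.0274. At 5.5 months it was at 121 ± 40.6 CPM in Hoxb7 and 58.7 ± 11.0 CPM in Atp6b1v1 control males. Females were at 62.1 ± 47.0 and 61.3 ± 12.9 CPM. Whether this difference between drivers depended on sex was not tested. For Scnn1g the difference was 0.20 (95% interval -0.09 to 0.49) and for Nr3c2 -0.13 (-0.38 to 0.13). By contrast, all 4 principal cell markers differed, with a median of -1.66. In the 42 control libraries, pulldown and total together, males had less Sgk1 than females (log2 difference -1.04, standard error 0.19, adjusted p = 2.60e-05), less Nedd4l (-0.33, adjusted p = 8.63e-06) and less Nr3c2 (-0.29, adjusted p = 0.0145), among 30.3% of genes that differed between the sexes. Both kinds of library may be of the same mice, so that this test may count a mouse more than once, and each kind was also fitted alone, a choice made after seeing the data. In the 21 control pulldowns Sgk1 (-1.03, adjusted p = 0.0431) and Nedd4l (-0.35, adjusted p = 0.0491) were lower in males and Nr3c2 was at -0.13 (adjusted p = 0.65), where 1238 of the 21175 genes differed. In the 21 total RNA libraries all 7 members were lower in males, Sgk1 at -1.12 (adjusted p = 2.38e-04) and Scnn1b at -0.47 (adjusted p = 1.04e-07), where 6242 genes differed. The subunits in control pulldowns were at 0.04, 0.02 and -0.03 in the order alpha, beta and gamma. Whether the sexes differed more in total RNA than in pulldowns was not tested.

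Subunits were compared with each other per length, as CPM per kilobase of exon. The length was that of all annotated exons of a gene merged, and levels and rankings between genes depend on that choice. In Hoxb7 control pools Scnn1a was at 68.7 ± 14.6, Scnn1g at 72.2 ± 18.3 and Scnn1b at 30.6 ± 6.64 CPM per kilobase (n = 10), and in Atp6b1v1 pools they were at 81.4 ± 14.5, 81.7 ± 16.4 and 28.4 ± 7.96 (n = 11). The alpha and gamma subunits lay at like levels in the pulldowns, above beta, by length alone. Since capture goes by the thiouracil in an RNA, pulldowns may favour transcripts rich in uracil, which was not corrected for in these comparisons between genes. In total RNA alpha stood alone, at 61.0 ± 9.45 CPM per kilobase, with gamma at 25.9 ± 6.33 and beta at 23.9 ± 4.03 (n = 21), which do not differ beyond their spread. Taken within each library, the ratio of gamma to beta was 2.35 ± 0.32 in Hoxb7 pools and 2.98 ± 0.51 in Atp6b1v1 pools, against 1.09 ± 0.22 in total RNA. On the same scale Sgk1 was the highest of the members in each kind of control library, at 218 ± 138, 124 ± 77.3 and 113 ± 56.2 CPM per kilobase in Hoxb7, Atp6b1v1 and total RNA. Nr3c2 was the lowest, at 7.53 ± 1.89, 6.58 ± 1.23 and 2.27 ± 0.56 CPM per kilobase.

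**Figure D2:**
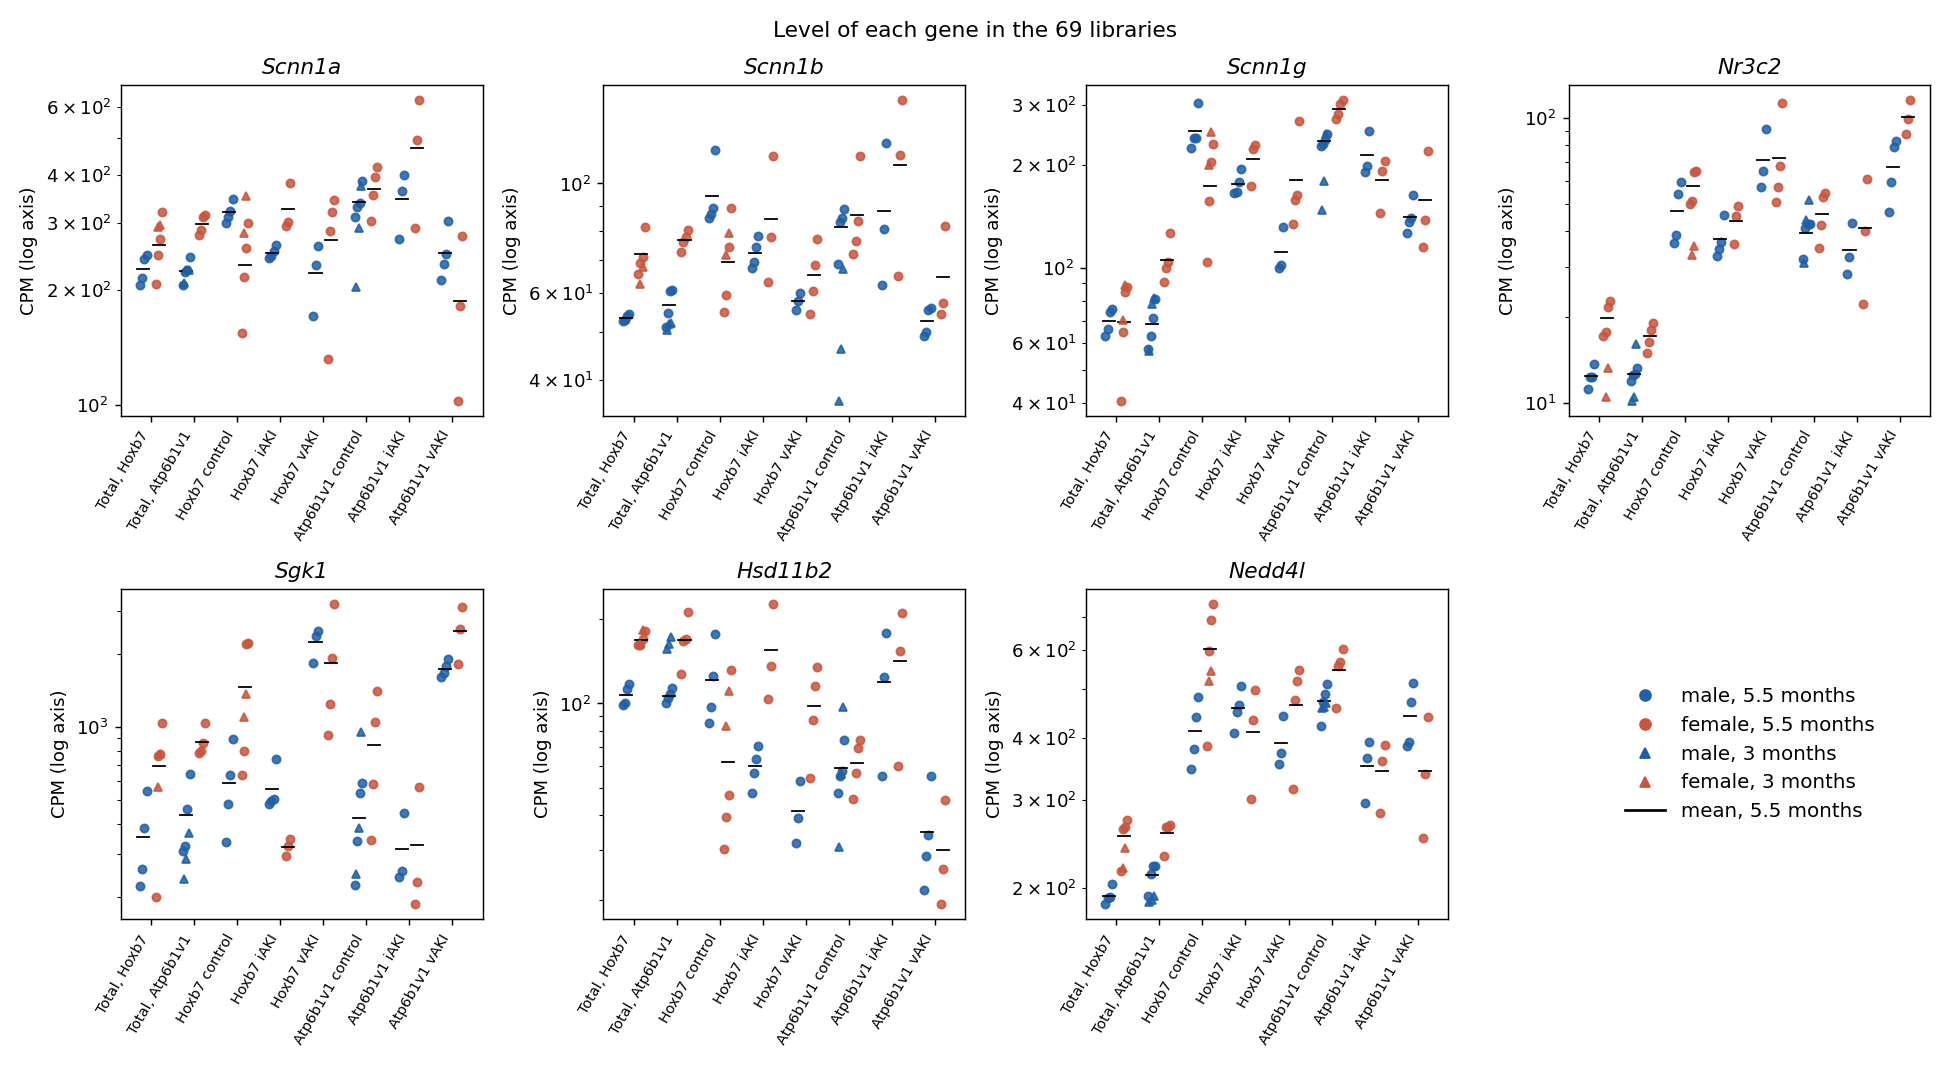
CPM on a log axis (y) of each gene in each of the 69 libraries, by kind of library (x), males in blue and females in red, circles for 5.5 months, triangles for 3 months and black lines for the mean at 5.5 months. In males Sgk1 lies at 1617 CPM or above in every pulldown after volume depletion and at 896 CPM or below in every control pulldown of 5.5 months.

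After volume depletion the pathway of males moved in 2 directions in both pools: Sgk1 and Nr3c2 rose, the 3 channel subunits fell, Hsd11b2 fell in the Hoxb7 pool, and Nedd4l did not pass the test. Of the 7 members 6 changed in the Hoxb7 pool, where 35.5% of genes did, and 5 in the Atp6b1v1 pool, where 14.6% did. In the Hoxb7 pool 17.9% of genes rose and 17.6% fell, and in the Atp6b1v1 pool 8.11% rose and 6.47% fell.

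Sgk1, the kinase, was at 482, 337, 896 and 634 CPM in the Hoxb7 controls and at 2384, 2489 and 1846 CPM after volume depletion. It was at 224, 589, 338 and 538 CPM in the Atp6b1v1 controls and at 1668, 1913, 1617 and 1781 CPM after volume depletion. In neither pool did the groups overlap, which was so of 39.5% of genes in the Hoxb7 comparison and 14.5% in the Atp6b1v1 comparison. The rise was 3.82-fold in the Hoxb7 pool, 1.93 on the log2 scale (standard error 0.30, adjusted p = 3.64e-05), and 4.17-fold in the Atp6b1v1 pool, or 2.06 (standard error 0.29, adjusted p = 1.04e-04). The gain was the largest among the members in both pools.

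Nedd4l, the ligase that the kinase acts on, was at 346 to 483 CPM in Hoxb7 controls and 355 to 442 CPM after volume depletion, with a log2 fold change of -0.08 (adjusted p = 0.741). For Atp6b1v1 it was at 422 to 512 CPM and 386 to 516 CPM, also with -0.08 (adjusted p = 0.739). Its groups overlapped in both. Taken per length, Sgk1 stood at 5.03 ± 1.61 times Nedd4l in Hoxb7 controls and at 20.7 ± 2.16 times after volume depletion, and at 3.16 ± 1.10 and 14.4 ± 1.74 times in the Atp6b1v1 pool. The size of these multiples depends on the merged exon lengths used, 4903 bases for Sgk1 and 17659 for Nedd4l.

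The gamma subunit gene Scnn1g fell furthest of the 3 subunits. It was at 240.1, 305, 241 and 225 CPM in Hoxb7 controls and at 132, 102.1 and 100.2 CPM after volume depletion, a log2 fold change of -1.18 (standard error 0.14, adjusted p = 1.44e-06). Atp6b1v1 pulldowns held it at 231, 238, 228 and 247 CPM in controls and at 126, 164, 136 and 139.9 CPM, a change of -0.72 (adjusted p = 6.93e-04). Every treated library was below every control of 5.5 months in both pools. The 3 Atp6b1v1 control males of 3 months, outside this fit, were at 148, 179 and 247 CPM, the lowest of them below the treated library at 164 CPM. Overlap is stated here and below against controls of 5.5 months.

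Scnn1b, the beta subunit, was at 89.1, 117, 86.6 and 85.2 CPM in Hoxb7 controls and at 57.8, 55.4 and 59.9 CPM after volume depletion, a log2 fold change of -0.70 (adjusted p = 1.55e-03). With the Atp6b1v1 driver it went from 88.6, 68.6, 83.4 and 85.3 CPM to 55.5, 55.9, 49.2 and 50.1 CPM, a change of -0.61 (adjusted p = 7.89e-03). These groups of 5.5 months did not overlap either, but those of 3 months were at 36.3, 46.1 and 67 CPM, a range that holds the treated libraries. With them among the controls (25 males) the Atp6b1v1 calls of Scnn1b (-0.34, adjusted p = 0.215) and Scnn1a (-0.33, adjusted p = 0.109) were lost.

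Scnn1a, the alpha subunit, was at 322, 346, 299 and 311 CPM in Hoxb7 controls and at 171, 261 and 232 CPM after volume depletion, a log2 fold change of -0.52 (adjusted p = 7.60e-03). Atp6b1v1 controls were at 384, 330.5, 337 and 311 CPM and treated libraries at 249, 304, 212 and 234 CPM, a change of -0.43 (adjusted p = 0.0345). The groups did not overlap, but the Atp6b1v1 gap was narrow, between 304 and 311 CPM, and the controls of 3 months, at 203, 291 and 373 CPM, spanned all 4 treated libraries. The Atp6b1v1 call was lost in 5 of the 8 fits that left out 1 of these libraries (control replicates 6, 9 and 10 and volume depletion replicates 6 and 7), with changes of -0.45 to -0.36 there. The Hoxb7 call was lost in 1 of 7, without volume depletion replicate 4 (-0.37, adjusted p = 0.0746).

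Nr3c2, the receptor, moved against the subunits. In the Atp6b1v1 pool it was at 42.5, 31.9, 42.6 and 41.2 CPM in controls and at 46.9, 59.3, 82.7 and 79 CPM after volume depletion, without overlap, a log2 fold change of 0.77 (standard error 0.19, adjusted p = 0.0102). Of the controls of 3 months, at 31, 43.8 and 51.6 CPM, the highest lay above the treated library at 46.9 CPM. Hoxb7 controls were at 54.1, 59.4, 39 and 36.4 CPM and treated libraries at 91.2, 65.2 and 57.1 CPM, a change of 0.60 (adjusted p = 0.0274) with groups that overlapped. Leaving out volume depletion replicate 4, control replicate 4 or control replicate 5 ended the Hoxb7 call, with changes from 0.38 to 0.73 over the 7 such fits.

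Hsd11b2, the enzyme that guards the receptor, was at 125, 176, 97.1 and 85.3 CPM in Hoxb7 controls and at 31.9, 39.1 and 53.1 CPM after volume depletion. It fell 2.91-fold, a log2 fold change of -1.54 (standard error 0.33, adjusted p = 8.29e-04), and the groups did not overlap. For Atp6b1v1 it was at 57.5, 48, 74.1 and 55.0 CPM in controls and at 55.3, 34, 21.7 and 28.6 CPM, a change of -0.73 that did not pass (adjusted p = 0.102). The library at 55.3 CPM, replicate 1, overlapped the controls, and without it the change was -1.04 (adjusted p = 0.0149).

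The libraries' numbers in the labels fall into 3 separate stretches, the first with a few gaps, here called series, and the labels do not say what a stretch stands for. All Hoxb7 libraries of injured males are of the first series, whereas 2 of the 4 Hoxb7 controls (replicates 4 and 5) are of the second. Beside controls of the first series only, at 482 and 337 CPM for Sgk1, 240.1 and 305 CPM for Scnn1g and 125 and 176 CPM for Hsd11b2, the treated libraries kept the same side without overlap, but for Nr3c2 (54.1 and 59.4 CPM) they overlapped. With so few libraries such separation says little, and its share over all genes was not taken. With the series as a covariate the same 6 members changed, Sgk1 by 2.20 and Hsd11b2 by -1.79, and in the Atp6b1v1 pool Hsd11b2 changed as well, by -0.84 (adjusted p = 0.0168).

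Cell type markers moved with these changes. In the Hoxb7 pool after volume depletion all 4 principal cell markers fell, with a median of -1.71 and a summed level of 2383 to 3017 CPM in controls and 950 to 1056 CPM in treated libraries. There 3 of the 5 markers of the distal convoluted and connecting tubule also fell, from summed levels of 480 to 785 CPM to 229 to 323 CPM, as did both thick ascending limb markers, from 1329 to 2321 CPM to 762 to 850 CPM. Of the 5 intercalated cell markers 3 fell, with a median of -1.14 and summed levels of 535 to 866 and 387 to 644 CPM. All 4 fat markers fell, from 36.1 to 100 CPM to 13.7 to 26.2 CPM, and of the 4 macrophage markers 2 rose and 2 fell.

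Of the 5 intercalated cell markers 2 fell in the Atp6b1v1 pool, with a median of -1.01 and summed levels of 670 to 895 CPM in controls and 441 to 593 CPM in treated libraries, which did not overlap. The distal list fell there in 4 of 5 markers, from 568 to 1192 CPM to 234 to 415 CPM, and the thick ascending limb list in 1 of 2. The fat markers, of which 2 of 4 fell, summed to 28.6 to 79.8 and 9.38 to 23.9 CPM, and the macrophage markers, of which 1 of 4 fell, to 83.1 to 117 and 53.6 to 79.5 CPM. An endothelial marker of 3 fell, and 1 principal cell marker rose, with summed levels of 453 to 494 and 479 to 687 CPM. No proximal tubule or podocyte marker passed in either pool. The part of these shifts in the members' changes was not tested.

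**Figure D3:**
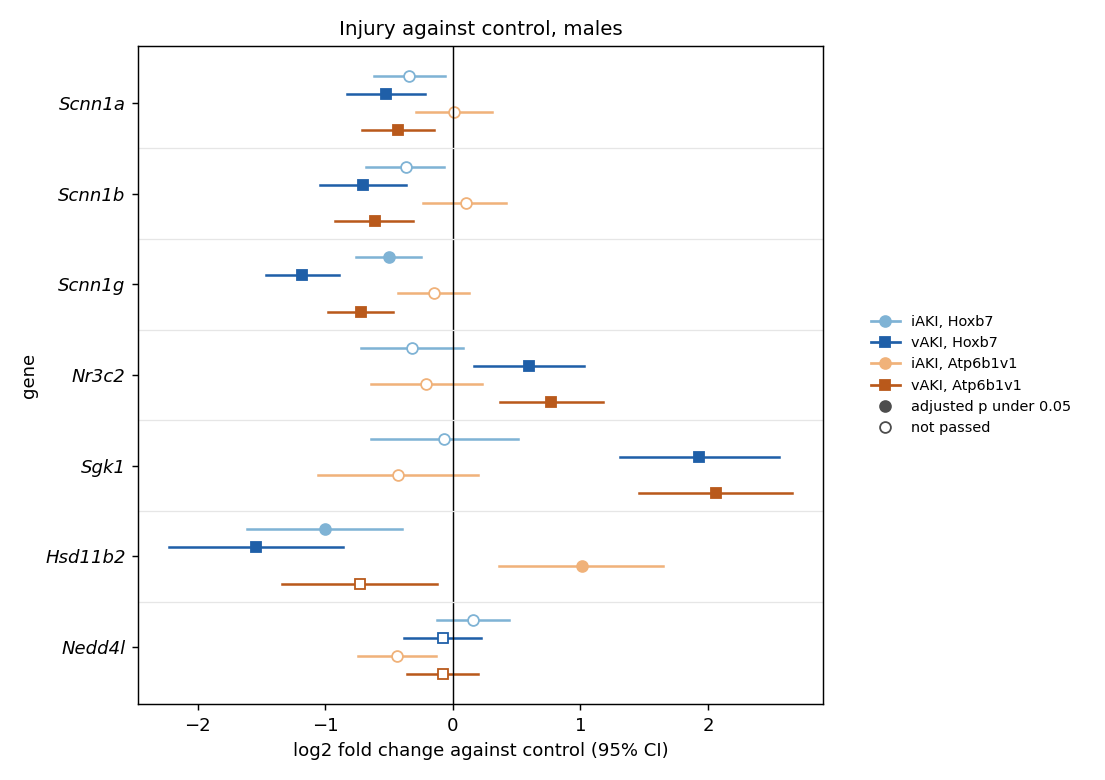
Log2 fold change against control (x axis) in male pulldowns for the 7 genes (y axis), ischemia in pale circles and volume depletion in dark squares, Hoxb7 in blue and Atp6b1v1 in brown, with 95% confidence intervals and filled symbols for an adjusted p under 0.05. Volume depletion moved Sgk1 by 1.93 and 2.06 and Scnn1g by -1.18 and -0.72, and the ischemia intervals of Sgk1 include 0.

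In males 2 members changed after ischemia in the Hoxb7 pool, where 6.13% of genes did, and 1 in the Atp6b1v1 pool, where 8.51% did (1803 genes, or 410 without ischemia replicate 1). Hsd11b2 was called in both, in opposite directions. Hoxb7 pulldowns held it at 125, 176, 97.1 and 85.3 CPM in controls and at 70.7, 56.6, 48.1 and 63.1 CPM after ischemia, without overlap, a log2 fold change of -1.0 (standard error 0.29, adjusted p = 0.0435). Atp6b1v1 pulldowns held it at 48 to 74.1 CPM in the 4 controls and at 179, 124 and 54.9 CPM after ischemia, a change of 1.01 (standard error 0.31, adjusted p = 0.0456).

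The rise of Hsd11b2 in the Atp6b1v1 pool rested on the pair of libraries at 179 and 124 CPM, both of the first series of library numbers, where the controls were at 57.5 and 48 CPM. In the second series the treated library was at 54.9 CPM and the controls at 74.1 and 55.0 CPM, and with the series as a covariate the change was 0.77 (adjusted p = 0.0584). Of the 7 fits that left out a library the call held in 2, without control replicate 10 or ischemia replicate 5, with changes of 0.61 to 1.37 over the 7. The Hoxb7 call held in 2 of 8 such fits, without control replicate 4 or 5, with changes of -1.13 to -0.77. With the series as a covariate it was -1.26 (adjusted p = 2.24e-03).

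Scnn1g was the other member that changed in the Hoxb7 pool, from 240.1, 305, 241 and 225 CPM to 166, 167, 195 and 178 CPM, a log2 fold change of -0.50 (standard error 0.12, adjusted p = 0.017). The call was lost without control replicate 3 (-0.40), ischemia replicate 4 (-0.47) or ischemia replicate 5 (-0.50). Scnn1a, at 252, 262, 245 and 242 CPM, and Scnn1b, at 67.5, 69.2, 78.4 and 74.2 CPM, also lay wholly below their controls, as treated and control libraries were apart for 15.9% of genes, but at -0.34 (adjusted p = 0.146) and -0.37 (adjusted p = 0.142) they did not pass. Adjusted for the series, they were at -0.45 and -0.46 and passed (adjusted p = 0.0147 and 0.0309). The 3 subunits were, in the Atp6b1v1 pool, at 0.01, 0.10 and -0.15 in the order alpha, beta and gamma, and their groups overlapped.

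Sgk1 was at 507, 496, 740.4 and 485 CPM in the Hoxb7 pool after ischemia and at 243, 256 and 444 CPM in the Atp6b1v1 pool, within the range of controls in both. Its log2 fold changes were -0.07 (adjusted p = 0.970) and -0.43 (adjusted p = 0.416). Nr3c2 was at -0.32 and -0.21, with overlap. Nedd4l was at 297, 365 and 393 CPM after ischemia in the Atp6b1v1 pool, below all its controls (422 to 512 CPM), at -0.44 (adjusted p = 0.0660). Treated and control libraries were apart for 20.6% of genes there.

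Beside these values, all 4 principal cell markers fell in the Hoxb7 pool after ischemia, with a median of -1.51 and a summed level of 769 to 994 CPM against 2383 to 3017 CPM in controls, and all 4 fat markers fell. The summed level of the distal convoluted and connecting tubule markers was 659 to 716 CPM, inside the control range of 480 to 785 CPM, with 1 of the 5 lower, and 1 intercalated cell marker fell and 1 macrophage marker rose. The intercalated cell markers in the Atp6b1v1 pool summed to 579, 1172 and 1413 CPM as lowest, median and highest, against 670 to 895 CPM in controls, with 1 of the 5 higher. There 2 of the 4 proximal tubule markers fell, from summed levels of 1462 to 3034 CPM to 567 to 819 CPM, 1 endothelial marker fell and 1 thick ascending limb marker rose. The part of these shifts in the members' values was not tested.

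Volume depletion and ischemia share their controls, so each was also set against the other. In the Hoxb7 pool Sgk1 was higher after volume depletion by 2.00 on the log2 scale (adjusted p = 3.06e-05), Nr3c2 was higher by 0.92 (adjusted p = 1.52e-03) and Scnn1g was lower, at -0.67 (adjusted p = 5.20e-04), where 33.3% of genes differed. Hsd11b2 was at -0.54 (95% interval -1.20 to 0.12). For Atp6b1v1 6 members differed, where 29.3% of genes did: Sgk1 at 2.49 (adjusted p = 1.31e-05), Nr3c2 at 0.98, Scnn1a at -0.44, Scnn1b at -0.71, Scnn1g at -0.57 and Hsd11b2 at -1.74 (adjusted p = 2.90e-04). The Scnn1a call was lost without ischemia replicate 1 (-0.35), ischemia replicate 4 (-0.43) or volume depletion replicate 6 (-0.37). Nedd4l was at 0.35 (adjusted p = 0.0748). Of the markers there, 4 of 5 intercalated cell markers were lower after volume depletion than after ischemia (median -1.17) and 3 of 4 proximal tubule markers higher (2.36). Both thick ascending limb markers were lower (-1.53), with sums of 862 to 998 CPM after volume depletion and 1825 to 3160 CPM after ischemia, as were 2 of 5 distal markers (-0.54), with 234 to 415 and 676 to 1006 CPM, and 3 of 4 fat markers (-1.58), with 9.38 to 23.9 and 61.2 to 117 CPM. One endothelial marker was lower, and of the principal cell markers 1 was higher and 1 lower. With the Hoxb7 driver 3 of 5 distal markers (-1.14), 1 intercalated cell marker and 1 thick ascending limb marker were lower, principal cell markers were higher in 1 case and lower in 2, and macrophage markers likewise. The part of these shifts was not tested.

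The response to ischemia differed between the pools for Hsd11b2 alone of the members, by 2.01 on the log2 scale (Atp6b1v1 minus Hoxb7, standard error 0.43, adjusted p = 8.05e-03), where 7.79% of genes differed. With both sexes and sex as a covariate the difference was 1.04 (adjusted p = 0.262), and in females alone it was -0.15. All 4 principal cell markers (median 1.8) and all 4 fat markers (2.39) differed with it. Nedd4l was at -0.60 (adjusted p = 0.0643). The response to volume depletion differed for no member, where 4.20% of genes did, and at an unadjusted p under 0.05 only Scnn1g did, less lowered in the Atp6b1v1 pool by 0.45 (95% interval 0.08 to 0.83). DESeq2 also called none. For Sgk1 the difference was 0.13 with an interval of -0.73 to 0.98, wide enough to hold sizeable differences either way.

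Other genes of the pathway were taken from lists by role. Of 12 genes that aldosterone or other corticosteroids are known to induce, 7 rose and 1 fell in the male Hoxb7 pool after volume depletion, with a median log2 fold change of 1.20 over the 12. All 7 were DEGs, which in that direction were 9.61% of genes and in either direction 16.4%. The largest rises were those of Rasd1, a Ras-like protein induced by dexamethasone, at 3.13 (adjusted p = 1.27e-04), of the clock gene Per1 at 2.73 (adjusted p = 1.22e-06), of Edn1, which encodes endothelin, at 2.52 and of the deubiquitinase gene Usp2 at 2.10. Fxyd4, a regulator of the sodium pump, fell, at -1.27. It and Tsc22d3 below were named after their values were seen. In the Atp6b1v1 pool 4 rose, where 8.11% of genes did, and none fell, with a median of 0.38, and the DEGs, 5.15% of genes there, were Rasd1 at 2.56 and Per1 at 1.71. The response differed between the pools for Usp2 (Atp6b1v1 minus Hoxb7 -1.65, adjusted p = 6.33e-03), Tsc22d3 (-1.06, adjusted p = 0.0101), a leucine zipper gene induced by glucocorticoids, and Fxyd4 (1.59, adjusted p = 1.71e-03).

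After ischemia no gene of that list rose in either male pool. Of the Hoxb7 values 2 fell, none a DEG, where 2.79% of genes fell and 2.30% were DEGs. Of the Atp6b1v1 values 3 fell, of which Usp2 was a DEG, at -1.52 (adjusted p = 1.27e-03), where 4.74% of genes fell and 2.82% were DEGs. Chosen with earlier results of these data known, the lists are not independent evidence of a direction.

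**Figure D4:**
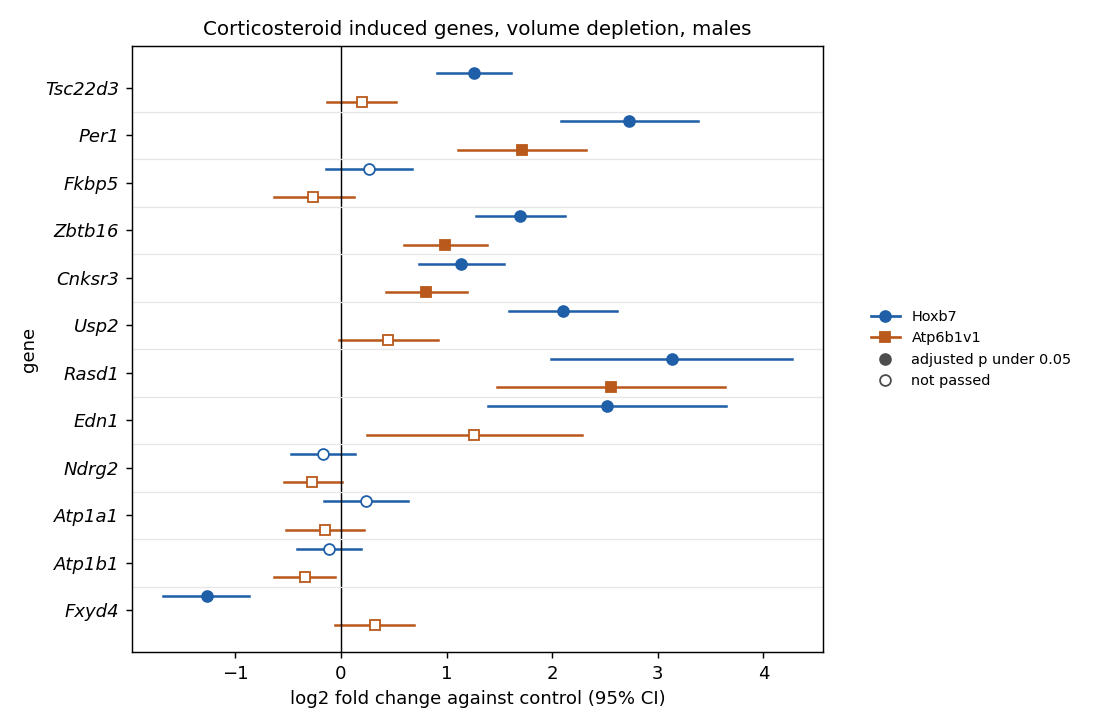
Log2 fold change after volume depletion against control in males (x axis) for 12 corticosteroid induced genes (y axis), Hoxb7 in blue circles and Atp6b1v1 in brown squares, with 95% confidence intervals and filled symbols for an adjusted p under 0.05. Rasd1, at 3.13 and 2.56, and Per1, at 2.73 and 1.71, lie to the right in both pools, and Fxyd4 lies at -1.27 in the Hoxb7 pool.

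Of the 11 kinases and regulators of the Sgk1 and Wnk pathways, 3 fell and none rose in the Hoxb7 pool after volume depletion, where 17.6% of genes fell, with Wnk4, a kinase that governs distal sodium chloride transport, as the DEG at -1.14 (adjusted p = 9.82e-05). Wnk4 was also, in the Atp6b1v1 pool, the 1 gene that changed, at -1.19 (adjusted p = 2.11e-04), where 14.6% of genes changed. After ischemia 1 fell in the Hoxb7 pool, where 2.79% of genes did, and 4 in the Atp6b1v1 pool, where 4.74% did. There Klhl3, which targets Wnk kinases for degradation, was the DEG at -1.35 (adjusted p = 4.44e-03). Of 4 other genes of distal ion transport, 3 fell in each pool after volume depletion, where 17.6% and 6.47% of genes fell. The DEGs were Slc12a3, the sodium chloride cotransporter, at -1.32 and -1.73 in the Hoxb7 and Atp6b1v1 pools, and Kcnj1, a potassium channel, at -1.67 in the Hoxb7 pool. Slc12a3 is also counted among the distal convoluted and connecting tubule markers above, so its fall enters both lists. The Kcnj1 response was less negative in the Atp6b1v1 pool by 1.20 (adjusted p = 0.0203). Kcnma1, the large-conductance potassium channel, fell after ischemia in the Atp6b1v1 pool, at -1.15.

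Among the other corticosteroid genes, Hsd11b1, which regenerates active glucocorticoid, fell in the Atp6b1v1 pool after ischemia, at -1.15 (adjusted p = 0.0176), and after volume depletion, at -1.20 (adjusted p = 4.35e-03). The glucocorticoid receptor gene Nr3c1, named after its value was seen, fell there after ischemia, at -0.58 (adjusted p = 0.0213). Of Nedd4, the gene of a ligase related to that of Nedd4l, and 3 genes of 14-3-3 proteins, all 4 changed in the Hoxb7 pool after volume depletion, 3 of them lower, none a DEG, where 35.5% of genes changed. No protease that activates the channel and no protease inhibitor was a DEG in the male injury comparisons.

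In females Sgk1 and Nr3c2 rose and Scnn1a and Scnn1g fell after volume depletion in the Atp6b1v1 pool, and no member passed in the Hoxb7 pool. Sgk1 was at 1049, 344, 1412 and 586 CPM in Atp6b1v1 controls and at 2539, 3126 and 1819 CPM after volume depletion, and Nr3c2 was at 42, 52.6, 35.1 and 54.6 CPM and at 87.9, 99.2 and 115 CPM. Neither overlapped, as 31.2% of genes did not. The log2 fold changes were 1.56 for Sgk1 (standard error 0.50, adjusted p = 0.0355) and 1.13 for Nr3c2 (adjusted p = 9.82e-03). Scnn1a, at -0.97 (adjusted p = 0.0460), and Scnn1g, at -0.89 (adjusted p = 0.0271), also changed, so 4 members did where 18.0% of genes did. Scnn1b at -0.42, Hsd11b2 at -1.03 and Nedd4l at -0.66 (adjusted p = 0.0663) did not pass, though Hsd11b2, at 19.2 to 45.2 against 45.5 to 73.9 CPM, and Nedd4l, at 252 to 440.2 against 459 to 602 CPM, lay wholly below their controls. Beside these values, 2 of 5 intercalated cell markers fell, with summed levels of 820 to 1212 CPM in controls and 444 to 621 CPM in treated libraries, and 3 of 5 distal markers fell, with 653 to 1480 and 378 to 514 CPM. One principal cell marker fell, with sums of 364 to 655 and 418 to 760 CPM. Of 4 macrophage markers 1 rose and 1 fell, with sums of 74.2 to 122.6 and 47.8 to 69.5 CPM. Fat markers summed to 23.3 to 49.7 and 9.34 to 18.9 CPM, and thick ascending limb markers to 1226.5 to 2053 and 734 to 1269.6 CPM. The lowest treated sums were 12.6 CPM for endothelial and 32.3 CPM for podocyte markers, where the lowest in controls were 78.1 and 136 CPM. The part of these shifts was not tested.

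In the female Hoxb7 pool the controls were themselves spread. Sgk1 was at 802, 634, 2234 and 2204 CPM in controls, at 345, 296 and 325 CPM after ischemia and at 1249.9, 1929, 931 and 3228 CPM after volume depletion. The controls at 2234 and 2204 CPM are of the third series of library numbers. The sole control of the first series, to which all injured libraries here belong, was at 802 CPM. After ischemia every library was below the controls, as 22.8% of genes were apart, and Sgk1 was the 1 member that changed, at -2.18 (standard error 0.54, adjusted p = 0.0401), where 3.14% of genes did (665 genes, or 2056 without volume depletion replicate 5). After volume depletion the groups overlapped, and the log2 fold change was 0.32 (95% interval -0.65 to 1.29). No member changed there, where 0.109% of genes did by edgeR's test and 1675 genes had an unadjusted p under 0.05. Between the injuries Sgk1 was higher after volume depletion by 2.5 (adjusted p = 0.0206), where 3.78% of genes differed (800 genes). Without volume depletion replicate 5 it was at 2.10 and the call was lost (adjusted p = 0.0578), with 224 genes. Beside this value, thick ascending limb markers summed to 3026 to 4122.5 CPM after ischemia and 1169 to 2428 CPM after volume depletion. Distal markers summed to 841 to 952 and 380 to 837 CPM, and macrophage markers to 43.3 to 79.2 and 37.9 to 42.7 CPM. The sums of the other marker lists overlapped, and the part of these shifts was not tested.

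Hsd11b2 in the female Hoxb7 pool was at 132, 30.2, 39.2 and 47.2 CPM in controls, at 103.4, 136 and 227 CPM after ischemia and at 116, 87.4, 135 and 54.2 CPM after volume depletion. Both treated groups overlapped the control at 132 CPM, replicate 1, and the 2 female Hoxb7 controls of 3 months, outside this fit, were at 83.2 and 110.9 CPM, both inside the range after volume depletion and the higher inside that after ischemia. The changes of 1.33 (adjusted p = 0.0883) and 0.66 (adjusted p = 0.769) did not pass. Scnn1g was at 231, 104.3, 158 and 205 CPM in controls, at 174, 224 and 230.0 CPM after ischemia and at 271, 163, 158 and 135 CPM after volume depletion, with overlap in both. Replicate 1 is the sole control of the first series of library numbers in this group, and all injured Hoxb7 females are of that series. No marker of any list passed in this pool after volume depletion. After ischemia 1 of the 2 thick ascending limb markers rose, with sums of 939 to 2321 CPM in controls and 3026 to 4123 CPM in treated libraries, and 1 macrophage marker rose and 1 fat marker fell. Without volume depletion replicate 5, the library that stood apart, the changes after volume depletion were 0.85 for Hsd11b2 and -0.11 for Sgk1.

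In the female Atp6b1v1 pool after ischemia no member changed, where 2.66% of genes did (563 genes, or 1163 without Hoxb7 volume depletion replicate 5). Unadjusted p-values from edgeR were 0.0110 for Nedd4l, at -0.69, 0.0141 for Scnn1g, at -0.71, 0.0147 for Sgk1, at -1.39, and 0.0159 for Hsd11b2, at 1.18. Scnn1g was at 193, 206 and 145 CPM, below its controls at 274 to 311 CPM, and Nedd4l at 284 to 387 CPM, below its controls at 459 to 602 CPM, where 17.1% of genes were apart. Between the injuries Sgk1 (2.95), Nr3c2 (1.32), Scnn1a (-1.30), Scnn1b (-0.73) and Hsd11b2 (-2.21, adjusted p = 2.52e-03) differed in this pool, where 33.1% of genes did. Beside them, 3 of 5 intercalated cell markers were lower after volume depletion (median -1.52), with sums of 444 to 621 CPM against 501 to 1658 CPM after ischemia, as were 2 of 5 distal markers (-1.09), with 378 to 514 and 678 to 1455 CPM. Also lower were 1 of 2 thick ascending limb markers, with 734 to 1269.6 and 1319.5 to 2965 CPM, 2 of 4 fat markers, with 9.34 to 18.9 and 37.8 to 88.0 CPM, 1 principal cell marker and 1 endothelial marker, and 1 proximal tubule marker and 1 macrophage marker were higher. Their part was not tested.

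Whether the sexes differed was tested as the difference of their responses in one fit of the 43 pulldown libraries. In the Hoxb7 pool the response to ischemia differed for Sgk1 (males minus females 2.13, standard error 0.61, adjusted p = 0.0235) and Hsd11b2 (-2.33, standard error 0.57, adjusted p = 0.0112), where 10.5% of genes differed. The response to volume depletion differed for Scnn1g (-1.23, standard error 0.29, adjusted p = 5.51e-03) and Hsd11b2 (-2.20, standard error 0.58, adjusted p = 0.0111), where 16.0% of genes differed, and for Sgk1 it was 1.62 (adjusted p = 0.0562). Both shares of genes moved with single libraries. The 2231 genes for ischemia became 162 without ischemia female replicate 3 and 3904 without control female replicate 1, and the 3387 for volume depletion became 1646 without volume depletion female replicate 1 and 5929 without its replicate 5. Adjusted for the series, Sgk1 after ischemia was at 1.67 (adjusted p = 0.0755), and its call was lost in 6 of the 15 fits that left out a library, with differences of 1.85 to 2.14 in those 6. The ischemia call of Hsd11b2 was lost without ischemia female replicate 3 (-1.95, adjusted p = 0.0761). After volume depletion Sgk1 was called in 4 of 15 such fits, among them that without volume depletion female replicate 5 (2.04, adjusted p = 9.40e-03), which also called Scnn1a (-0.96, adjusted p = 0.0228). Cell type markers differed in response between the sexes as well. All 4 principal cell markers did after ischemia (median -2.09) and after volume depletion (-1.61), and their sums in females were 940 to 2114 CPM in controls, 1200 to 2510 CPM after ischemia and 959 to 1762 CPM after volume depletion, where in males they fell. After ischemia 1 of 2 thick ascending limb markers, 1 of 5 intercalated cell markers and 1 of 4 fat markers were lower and 1 of 4 macrophage markers higher in this difference. After volume depletion both thick ascending limb markers (median -1.52), 3 of 5 distal markers (-1.66) and 1 of 5 intercalated cell markers were lower, and 1 macrophage marker higher. The level of Sgk1 also differed between the sexes in controls, as given above, and the part of the controls' spread and of the markers in these differences was not tested.

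In the Atp6b1v1 pool no gene passed for a difference between the sexes by edgeR's test, with 676 genes at an unadjusted p under 0.05 for ischemia (1853, with 1 gene passing, without ischemia female replicate 6) and 1756 for volume depletion, and DESeq2 called 1 and 44 genes, none of them a member. The intervals were wide, from -0.30 to 2.21 for Sgk1 after ischemia and from -0.73 to 1.69 after volume depletion.

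**Figure D5:**
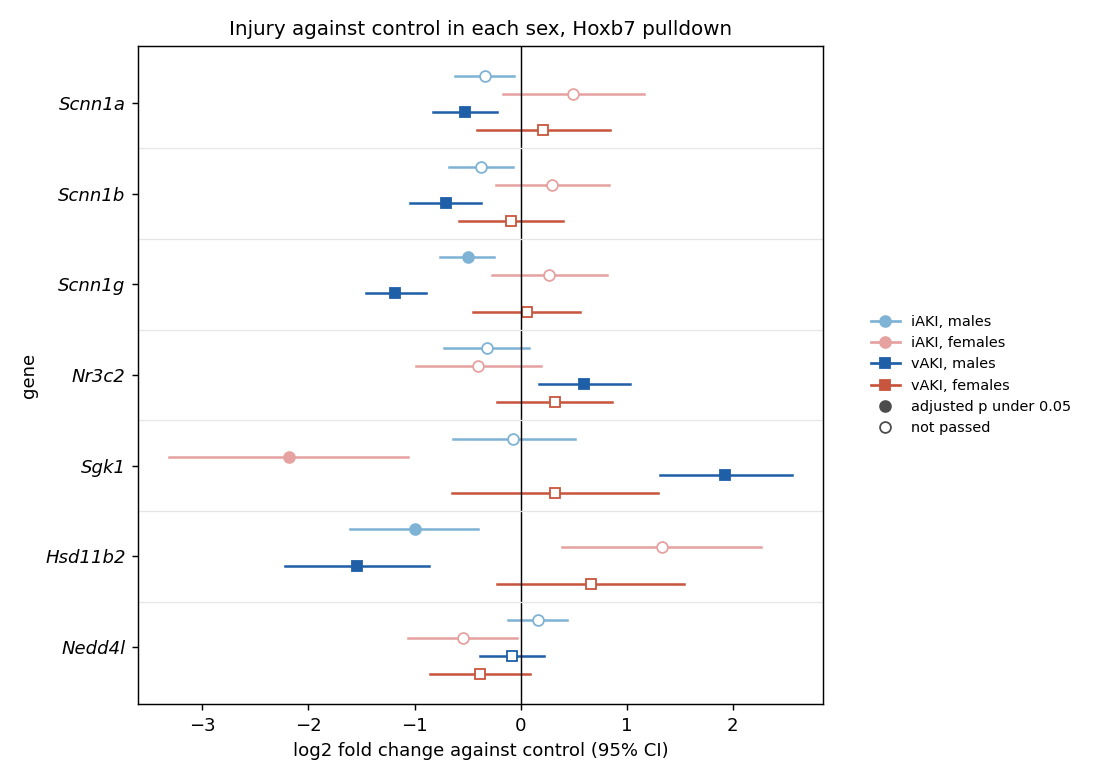
Log2 fold change against control (x axis) in Hoxb7 pulldowns for the 7 genes (y axis), males in blue and females in red, ischemia in pale circles and volume depletion in dark squares, with 95% confidence intervals and filled symbols for an adjusted p under 0.05. Hsd11b2 lies at -1.0 and -1.54 in males and at 1.33 and 0.66 in females, and Sgk1 after ischemia lies at -0.07 in males and -2.18 in females.

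Over the 48 pulldown libraries, the Pearson correlation of log2 CPM described which of 9696 genes with a mean of at least 10 CPM varied most like each member. The libraries share groups, sexes and series, so the values describe these libraries only. Those nearest Sgk1 were Ripk4, Prickle1 and Dusp1 (r from 0.92 to 0.93), and among those nearest Nr3c2 were Prdm16 (0.91) and Sox6 (0.83). Hsd11b2 was nearest to Il17re, Slc25a35 and Rhcg, an ammonia transporter of the collecting duct (0.91 each). Scnn1g was nearest to Calb1 (0.80), a calcium-binding protein of the distal tubule, with Cipc (0.79) and Dsc2 (0.78). Scnn1a was nearest to Nfe2l1 (0.89), Ctdsp1 and Ecd (both 0.88), Scnn1b to Pbxip1 and 8430419L09Rik (both 0.82) and Kcnq1 (0.81), and Nedd4l to Ppp1r10 (0.81), Tet2 (0.79) and Zfp84 (0.78). Among the members themselves the subunits went together (0.71 for Scnn1a with Scnn1b, 0.70 for Scnn1a with Scnn1g and 0.68 for Scnn1b with Scnn1g). Hsd11b2 went with them as well, at 0.75 with Scnn1b, 0.72 with Scnn1a and 0.57 with Scnn1g. No subunit was among the nearest genes named for another. Sgk1 went against Scnn1a (-0.68) and Hsd11b2 (-0.65).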

How the data were processed

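RNA of 69 mouse kidney libraries (48 pulldowns of 4-TU tagged RNA and 21 of total RNA of controls) was sequenced after poly(A) selection. The authors deposited raw read counts per gene symbol, not normalized. By the study's methods and the submitters' processing notes, bases were called with Illumina RTA and CASAVA 1.8.2, and reads were trimmed with Trimmomatic 0.36, aligned to mm10 with STAR 2.5.3a and counted with HTSeq 0.6.1p2, at default settings for the aligner and the counter. The annotation, and whether the libraries mark strand, are not given in the sources used here. By default the counter counts by strand and leaves out reads that align to several places or overlap several genes.

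Here genes with at least 2 counts over all libraries (21175 of 24411) were scaled by TMM and tested with edgeR 4.0.16 (quasi-likelihood F-test, two-sided) in R 4.3.3, with Benjamini-Hochberg adjustment, limma 3.58.1 as its base and DESeq2 1.42.0 as an alternative. Groups came from the labels. The injury comparisons used the 22 male pulldowns of 5.5 months in 6 groups, the differences between sexes 43 pulldowns, the female values 21 pulldowns, and the baseline 42 controls with sex as a covariate. CPM per kilobase used GENCODE M21 exon unions (GRCm38). Scripts were tested on simulated counts.

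Depths of 12618062 to 30305464 counts put counting error below the spread between libraries for these members (common dispersion 0.0444 in males and 0.0782 in females). The labels number libraries without naming mice, and the numbers of mice in the study's supplement do not match them everywhere, so p-values measure the spread between libraries, which may be technical. The supplement gives 21 mice for each driver's comparison of control pulldown with total RNA, and none for the 42 control libraries together. Pulldowns and totals are equal in number per genotype, sex and age, so both may be of the same mice, which the fit does not use. The alternatives were another tool, scaling, filters, sample sets, the series of library numbers or the replicate number as a term, and each library left out in turn.

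The members, the lists and the tests were chosen with earlier results of these data known. Named are the 7 members, for each list at most 4 DEGs in order of absolute log2 fold change, and for each member the 3 genes of highest correlation, of which 1 is not reported here. Fxyd4, Tsc22d3 and Nr3c1 are outside this rule and were named after their values were seen. No sequence is shown for Nedd4l.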

Additional observations from a re-analysis of the deposited data

Results flagged for a closer look

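In 11 groups of 4 libraries, and so 77 sets of values over the 7 members, the highest or lowest library was tested for standing apart by Dixon's criterion. It did in 5, where chance alone gives about 1 in 20, or 3.85 sets. Hsd11b2 was at 132 CPM in Control Hoxb7 pulldown female replicate 1 and at 30.2 to 47.2 CPM in the other 3. Scnn1b was at 117 CPM in Control Hoxb7 pulldown male replicate 3 against 85.2 to 89.1 CPM, and Nr3c2 at 31.9 CPM in Control Atp6b1v1 pulldown male replicate 9 against 41.2 to 42.6 CPM. Sgk1 was at 740 CPM in ischemia Hoxb7 male replicate 6 against 485 to 507 CPM. Nedd4l was at 232 CPM in female total RNA replicate 6 of Atp6b1v1Cre mice against 266 to 267 CPM.

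Differences between groups under the same injury passed their own tests for 5 values. Between the drivers in males, the ischemia response of Hsd11b2 differed by 2.01 on the log2 scale (Atp6b1v1 minus Hoxb7, adjusted p = 8.05e-03, edgeR), with changes of 1.01 and -1.0. It was 1.04 (adjusted p = 0.262) with both sexes and sex as a covariate and -0.15 in females alone. Between the sexes in the Hoxb7 pool (males minus females, edgeR), the ischemia responses of Sgk1 differed by 2.13 (adjusted p = 0.0235) and of Hsd11b2 by -2.33 (adjusted p = 0.0112). The volume depletion responses of Scnn1g differed by -1.23 (adjusted p = 5.51e-03) and of Hsd11b2 by -2.20 (adjusted p = 0.0111). The library that stands apart for Hsd11b2 among female controls enters both of its sex differences, which were -3.0 for ischemia and -2.87 for volume depletion without it. That library is the sole female Hoxb7 control of the first series, to which all injured Hoxb7 females belong. Without it, injury and series cannot be told apart in these females.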

How the results depend on the processing

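Counts here are of members that changed. With both sexes and sex as a covariate they were 0 (against 2) for ischemia and 2 (against 6) for volume depletion in the Hoxb7 pool, 2 (against 1) for ischemia in the Atp6b1v1 pool and 0 (against 1) for the ischemia difference between drivers, and Hsd11b2 after ischemia in the Hoxb7 pool was at 0.06. With females only they were 1, 0, 0 and 0 for those 4 and 1 (against 3) between the injuries in the Hoxb7 pool. Of members called in males, or in controls of both sexes, values of opposite sign in females were 1.33 for Hsd11b2 and 0.27 for Scnn1g after ischemia and 0.66 for Hsd11b2, 0.21 for Scnn1a and 0.06 for Scnn1g after volume depletion in the Hoxb7 pool, -0.15 for Hsd11b2 in the ischemia difference between drivers and -0.07 for Scnn1a in Hoxb7 pulldown against total RNA. Without female Hoxb7 volume depletion replicate 5, chosen after seeing the data, the counts were 1, 0, 0, 0 and 0, and the first 6 of those values were 1.31, 0.24, 0.85, 0.44, 0.17 and -0.13, with Sgk1 at -0.11. The volume depletion difference between drivers then had 4 members (against 0), Hsd11b2 at -1.88, Scnn1a at -1.40 and Scnn1g at -1.05 among them. Members not called in either set also changed sign, Scnn1a, Scnn1b and Nedd4l after ischemia in the Hoxb7 pool to 0.49, 0.30 and -0.54 among them. The cause of these shifts was not tested.

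With 25 males the counts were 1 and 2 for ischemia in the Hoxb7 and Atp6b1v1 pools, 3 (against 5, without Scnn1a and Scnn1b) for volume depletion in the Atp6b1v1 pool and 2 for the ischemia difference between drivers. DESeq2 gave 2 for ischemia in the Atp6b1v1 pool, 2 for the ischemia difference between drivers and 1 (against 0) for Atp6b1v1 against Hoxb7 controls. The latter was 1 also with DESeq2's size factors, filterByExpr, males only and the series covariate. The filter filterByExpr gave 2 for ischemia in the Atp6b1v1 pool. Fits of the groups compared alone gave 0 there and 5 (against 3) between the injuries in the Hoxb7 pool. The series covariate gave 4 for ischemia in the Hoxb7 pool, 2 for the ischemia difference between drivers and 1 (against 2) for the ischemia difference between sexes. In males only, Hsd11b2 in Hoxb7 pulldown against total RNA was at 0.00. Of 112 values of members, 6 gained a call with DESeq2, 1 with its size factors and 3 with filterByExpr, 1 lost its call with no filter, and 7 gained and 2 lost theirs with the series covariate, and the others kept their call. With both sexes and sex as a covariate, of 56 values 8 lost a call, 1 gained one and 1 called value turned its sign. With the groups compared alone, of 42 values 3 lost and 3 gained a call.

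For males against females in controls, total RNA alone gave 7 members (against 3) and pulldowns alone 2, both chosen after seeing the data, with 1238 genes in pulldowns alone against 6410. Of 28 baseline values of members, 1 lost its call with libraries of 5.5 months only. Of 14 values of pulldown against total RNA, 1 lost its call with totals of the same genotype.

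Leaving out each library in turn gave 0 to 2 and 4 to 6 members for ischemia and volume depletion in the Hoxb7 pool, 0 to 1 and 4 to 6 in the Atp6b1v1 pool, 3 to 3 and 5 to 6 between the injuries, 1 to 3 and 0 to 0 for the differences between drivers, and 0 to 4 and 2 to 4 for the differences between sexes in the Hoxb7 pool, 0 to 0 in the Atp6b1v1 pool.

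Libraries share replicate numbers across groups. Same-numbered males did not deviate together (mean correlation -0.13 over 6 Hoxb7 pairs and -0.16 over 2 Atp6b1v1 pairs, the highest at 0.02 and 0.22). Females were at 0.03 over 5 Hoxb7 pairs, the highest at 0.41, and at 0.06 for 1 Atp6b1v1 pair. These few pairs gave no sign that the numbers pair mice, and cannot exclude it. With the replicate block the counts were 0 for ischemia in both pools, 5 between the injuries in the Hoxb7 pool, 0 for the ischemia difference between drivers, 0 and 0 for the Hoxb7 differences between sexes (0 and 0 also with the series added, a fit chosen after seeing the data) and 1 for Atp6b1v1 against Hoxb7 controls, and 93 of 112 values kept their call. Also lost with the block were Nr3c2 and Scnn1a after volume depletion in both pools, Scnn1a and Scnn1b in Hoxb7 pulldown against total RNA and Nr3c2 between the sexes in controls, and Hsd11b2 after volume depletion in the Atp6b1v1 pool gained a call (-1.35).

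Over all genes, changed genes numbered 1298 for ischemia in the Hoxb7 pool (625 with both sexes, 3078 with the series) and 1803 in the Atp6b1v1 pool (0 with the block, 3991 with both sexes), and 7521 for volume depletion in the Hoxb7 pool (23 with females only, 4437 with the block) and 3086 in the Atp6b1v1 pool (1311 with the groups compared, 6409 with both sexes). Between drivers they numbered 1649 for ischemia (0 with the block, 3123 with the series) and 890 for volume depletion (53 and 2639), and between sexes in the Hoxb7 pool 2231 and 3387 (0 and 1 with the block). The lowest counts with a library left out were 645 for ischemia in the Hoxb7 pool (control replicate 3), 410 in the Atp6b1v1 pool (ischemia replicate 1), 1640 for volume depletion in the Atp6b1v1 pool (volume depletion replicate 7), 599 and 411 between drivers (ischemia Atp6b1v1 replicate 1 and volume depletion Hoxb7 replicate 7) and 162 and 1646 between sexes (female ischemia replicate 3 and female volume depletion replicate 1). No member had fewer than 142 counts in any library, so counting error is small beside the spread between libraries, and 3 or 4 libraries a group limit the comparisons.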
